A study of Mus musculus with 6 samples.

Results

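The 9 genes described here encode Myc and Mycn, their dimerization partner Max, the antagonists Mxd1, Mxd3, Mxd4, Mxi1 and Mnt, and the Max-like factor Mlx. They were chosen by name, as a known protein network, with earlier results of these data known. All 9 were found among the 38924 rows of the deposited expression table. RNA was sequenced from C57BL/6 mouse bone marrow cells sorted for GFP and c-kit and against lineage markers. Leukemia libraries came from recipients of marrow transduced with the transcription factor Evi1 together with GFP, taken 6 months after transplantation. Preleukemia libraries came from the same kind of recipient at 4 weeks, and mock libraries from 4-week recipients whose marrow had received only GFP. Each of these 3 groups holds 2 libraries. Every cell measured had therefore gone through transduction and transplantation, and no GFP group was taken at 6 months, so time and leukemia cannot be told apart in comparisons of leukemia with either other group.

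Proteins of this network share a basic helix-loop-helix leucine zipper and act as pairs. Myc and Mycn bind the E-box CACGTG only as dimers with Max, and the dimers raise transcription of genes for ribosome building, nucleotide supply and growth. Mxd proteins and Mnt compete for Max at the same letters and bring in the Sin3 corepressor with its histone deacetylases. Mlx stands in for Max in a parallel arm: it pairs with the glucose-sensing factors Mlxip and Mlxipl, and also with Mxd1, Mxd4 and Mnt. In blood formation Myc and Mycn act together in stem cells, and Mxd1 is known to rise as myeloid cells mature.

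Values are RPKM, reads scaled by gene length and by library total, so levels can be compared between genes. Totals recovered from the spacing of low values lay between 16922829 and 21641602 reads per library. Groups were compared with limma on log2(RPKM + 1) over the 10958 genes that reached 1 RPKM in 2 or more libraries, and all 9 members passed that filter. Differences below are on this log2 scale, with the standard error and the Benjamini-Hochberg adjusted p over all genes tested, called at 0.05. The labels leave unstated if each library is a separate mouse, so a p-value speaks only for the spread among these libraries, possibly a technical one. Mecom, the gene of Evi1, checked the labels: it stood at 61.7 and 71.5 RPKM in leukemia and 78.0 and 80.1 in preleukemia, against 0.774 and 0.805 in mock. Kit, the sorting receptor, lay between 46.8 and 69.2 RPKM in all 6 libraries. Mock libraries were the least alike. Between the libraries of a group, the median absolute log2 difference over genes was 0.108 in leukemia, 0.112 in preleukemia and 0.216 in mock. Myc, Mnt and Mxd1, for which the mock pair lay far apart, are therefore given with and without each mock library.

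The sum of 7 stem and progenitor markers was 277 and 249 RPKM in leukemia. It was 255 and 229 RPKM in preleukemia and 312 and 262 RPKM in mock. Hlf, on that list, was at 0 in both leukemia libraries and in no other. Cd34, also on that list, had 127 and 98.6 RPKM in leukemia, 63.5 and 47.2 in preleukemia, and 142 and 112 in mock. Summed levels of markers of other cell types differed between the groups. The summed level of 10 neutrophil markers was 419.7 and 722 RPKM in leukemia and 3864 and 8275 in preleukemia, against 11.998 and 17.2 in mock; Mmp8 and Retnlg were at 0 in leukemia library 1 and Retnlg in mock library 1. For 9 erythroid markers the sum was 29.7 and 38.6 RPKM in leukemia and 224 and 144 in preleukemia, against 401 and 184 in mock, with Alas2 at 0 in both leukemia and both preleukemia libraries. For 5 megakaryocyte markers the sum was 3.60 and 12.1 RPKM in leukemia and 64.2 and 47.0 in preleukemia, against 30.5 and 31.2 in mock, with Gp1bb at 0 in both leukemia libraries and Pf4 in library 1. For 7 mast cell and basophil markers it was 19.1 and 19.1 RPKM in leukemia and 37.5 and 31.1 in preleukemia, against 118 and 96.1 in mock. For 8 B-lymphoid markers it was 12.5 and 11.9 RPKM in leukemia and 17.9 and 19.6 in preleukemia, against 41.3 and 43.7 in mock, with Pax5 at 0 in both leukemia libraries. For 6 T and NK markers it was 6.93 and 14.8 RPKM in leukemia and 66.9 and 67.3 in preleukemia, against 88.2 and 47.6 in mock, with 1 gene at or above 1 RPKM in each library. The sum of 6 dendritic markers was 22.9 and 26.8 RPKM in leukemia and 10.4 and 23.4 in preleukemia, against 33.4 and 83.3 in mock, and that of 7 monocyte markers was 391 and 442 RPKM in leukemia and 591 and 604 in preleukemia, against 417 and 599 in mock. Their part in the results below was not tested, and in sorted bulk RNA fewer cells of a type cannot be told apart from less RNA per cell.

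**Figure D1:**
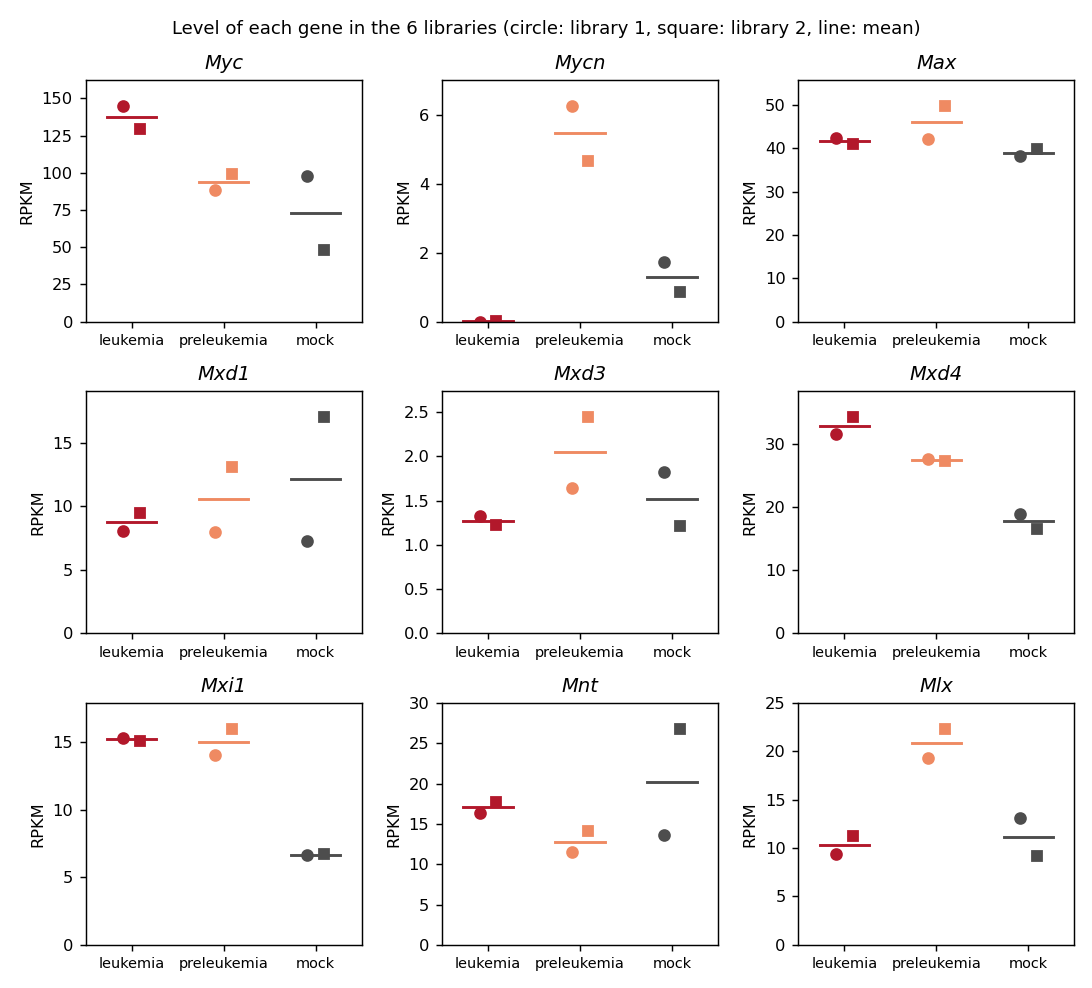
Level in RPKM (vertical axes, each from 0) of the 9 genes in leukemia, preleukemia and mock; circles are library 1, squares library 2 and lines the mean of the 2. Mycn is high in preleukemia and near 0 in leukemia, Mxi1 and Mxd4 are higher in both Evi1 groups than in mock, and the mock pair lies far apart for Myc, Mnt and Mxd1.

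Myc was the most abundant member in every library and Max the next. Among all 38924 rows Myc ranked 177 and 197 in leukemia, 363 and 311 in preleukemia, and 295 and 722 in mock. In leukemia the order of mean levels went on with Mxd4, Mnt, Mxi1, Mlx, Mxd1, Mxd3 and Mycn, and only the libraries of Mlx and Mxd1 overlapped as neighbours. In preleukemia it went on with Mxd4, Mlx, Mxi1, Mnt, Mxd1, Mycn and Mxd3, with overlap between Mxi1 and Mnt and between Mnt and Mxd1. In mock it went on with Mnt, Mxd4, Mxd1, Mlx, Mxi1, Mxd3 and Mycn, and overlap ran through Mnt, Mxd4, Mxd1 and Mlx and also joined Mxd3 to Mycn. Mycn thus stood below Mxd3 in leukemia and mock and above it in preleukemia.

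Of the 9 members, 2 rose (Mxi1 and Mxd4), 1 fell (Mycn) and 6 were not called in leukemia against mock, where 25.6% of all genes tested were called (12.1% higher and 13.5% lower). In preleukemia against mock, 4 rose (Mycn, Mxi1, Mxd4 and Mlx), none fell and 5 were not called, where 19.5% of genes were called (13.5% higher and 6.02% lower). No further member had an unadjusted p under 0.05 in that comparison. In leukemia against preleukemia 2 fell (Mycn and Mlx), none rose, also at an unadjusted p under 0.05, and 7 were not called, where 18.3% of genes were called (5.27% higher and 13% lower). With limma's voom on the implied reads 4, 4 and 2 members were called in these comparisons, in the same order. The groups did not overlap for 5 members in leukemia against mock, 5 in preleukemia against mock and 6 in leukemia against preleukemia, where 65.4%, 62.7% and 70.7% of all genes tested did not overlap. The comparisons with mock share the same 2 mock libraries, and their values are given side by side without a test of likeness.

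**Figure D2:**
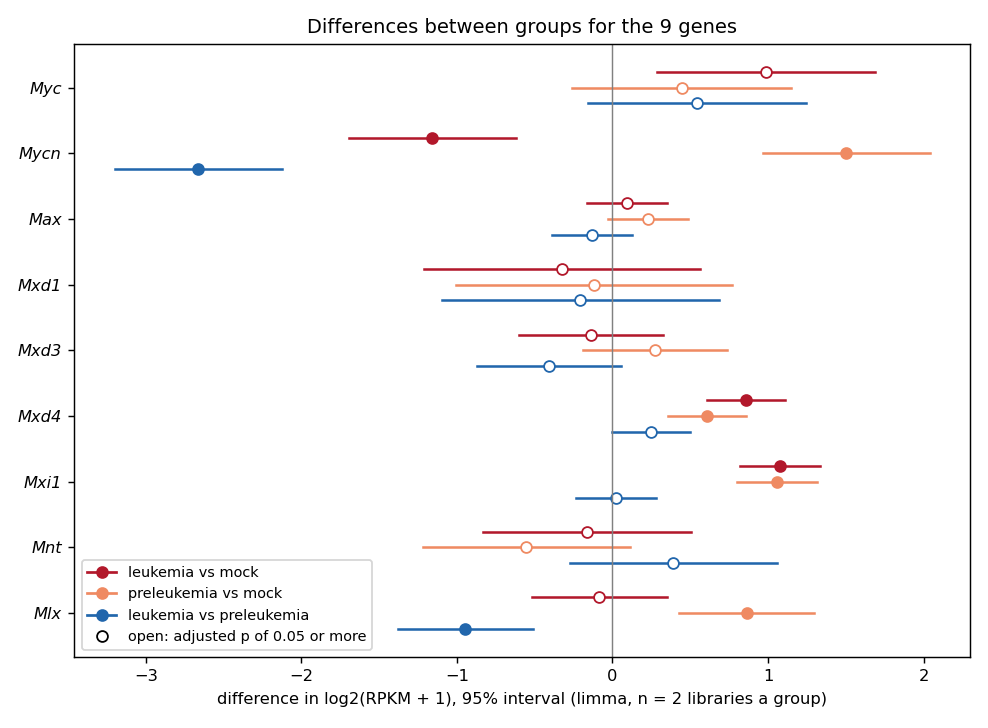
Difference in log2(RPKM + 1) between groups (horizontal axis) for each of the 9 genes, with its 95% interval from limma; filled points have an adjusted p under 0.05 and open points do not. Mycn lies on opposite sides of 0 in leukemia and preleukemia against mock, whereas Mxi1 lies near 1 in both.

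Mycn, a paralog of Myc with the same partner and the same E-box, showed the widest range of the 9 on the log2(RPKM + 1) scale. Its level was 0 and 0.0309 RPKM in leukemia, 6.28 and 4.67 RPKM in preleukemia, and 1.74 and 0.872 RPKM in mock. The 3 groups did not overlap in any pair, with preleukemia highest and leukemia at or near 0. The megakaryocyte marker sum had the same order of groups, and its part in this difference was not tested. The reads implied by these levels were 0 and 2 in leukemia, 350 and 333 in preleukemia, and 124 and 58 in mock. In leukemia both libraries lay below the level of 3 reads, which was 0.0433 and 0.0463 RPKM. As summed reads per library total, leukemia held 0.00278 of the preleukemia level (95% exact binomial interval 0.000336 to 0.0101) and 0.0113 of the mock level (0.00136 to 0.0414), for counting error only. Preleukemia held 4.07 times the mock level (3.45 to 4.82).

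In limma Mycn fell by 2.66 in leukemia against preleukemia (SE 0.22, adjusted p = 0.00164) and was called in all 16 alternative settings. It fell by 1.16 in leukemia against mock (SE 0.22, adjusted p = 0.0125), but did not pass without leukemia library 1 (adjusted p = 0.0673) or without leukemia library 2 (0.0644). It rose by 1.504 in preleukemia against mock (SE 0.22, adjusted p = 0.00692), but not without preleukemia library 1 (1.32, adjusted p = 0.0509). Log2 differences of so low a gene are pulled towards 0 by the pseudocount of 1 RPKM. Mycn passed the filter on low genes only because both preleukemia libraries, where it is high, reached it. In GRCm38 Mycn spans 12936093 to 12941914 of chromosome 12, minus strand (ENSMUSG00000037169.15, protein coding), and no exon of another gene in GENCODE M21 shares its exon bases.

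The stretch before the start of Mycn holds the letters TTTGGCGC, a form of the site of the cell cycle factors E2F, at 2 positions, beginning 183 and 168 bases before the start in the RefSeq promoter table. The reverse complement of a second form, TTTCGCGC, overlaps the first of them, beginning at 179 bases. The run is shown because, of the 8 members with an entry in that table, only Mycn held either form; Myc has no entry. Capitals mark the run from the first match to the last (GRCm38.p6, chr12:12941977-12942039, minus strand):
Mycn: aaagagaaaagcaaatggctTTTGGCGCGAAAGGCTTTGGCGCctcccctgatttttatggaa
On either strand TTTGGCGC was in 0.514% and TTTCGCGC in 0.323% of 32851 promoters of the same length. A match is a description of letters and not of binding.

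Myc, the growth regulator that dominates the family, had 145.0 and 129 RPKM in leukemia, 88.5 and 99.1 RPKM in preleukemia, and 97.6 and 48.0 RPKM in mock. Both leukemia libraries lay above the other 4, whereas preleukemia overlapped mock. The mean was 137 ± 11.2 RPKM in leukemia and 72.8 ± 35.1 in mock (SD, n = 2 each), a ratio of 1.88. The difference in leukemia against mock, 0.99 (SE 0.29, 95% interval 0.29 to 1.69, adjusted p = 0.0505), missed the threshold. It passed after trimmed mean scaling (adjusted p = 0.0415), after quantile normalization (0.0386), with the replicate number as a block (0.0427) and in voom on implied reads (0.0365). It did not pass with no filter on low genes (adjusted p = 0.134), in a fit of the 4 libraries compared (0.0891) or with another prior (0.0620). Nor did it pass at the other pseudocounts (0.0517 and 0.0503) or with a filter of 0.5 RPKM (0.0528). Without leukemia library 1 the difference was 0.91, and without leukemia library 2 it was 1.07. It did not pass when any single Evi1 library, of leukemia or preleukemia, was left out. Without mock library 1 it was 1.49 and without mock library 2 it was 0.48, passing in both, so its size turned on which mock library was used. In preleukemia against mock Myc differed by 0.45 (SE 0.29, adjusted p = 0.321), by 0.95 without mock library 1 (adjusted p = 0.00479) and by -0.06 without mock library 2 (0.770). In leukemia against preleukemia the difference was 0.54 (adjusted p = 0.247). It passed in a fit of the 4 libraries compared (adjusted p = 0.0136), which leaves out the mock libraries. It did not pass in voom on implied reads (adjusted p = 0.162) or when any single Evi1 library was left out. Myc spans 61985391 to 61990374 of chromosome 15, plus strand (ENSMUSG00000022346.15).

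Max, the obligate partner, varied least on the log2(RPKM + 1) scale. It had 42.5 and 41.0 RPKM in leukemia, 42.2 and 49.8 RPKM in preleukemia, and 38.3 and 39.8 RPKM in mock. All 4 Evi1 libraries lay above both mock libraries, by little. The difference from mock was 0.09 in leukemia (95% interval -0.16 to 0.35, adjusted p = 0.551) and 0.23 in preleukemia (-0.03 to 0.49, adjusted p = 0.180), and leukemia against preleukemia gave -0.13 (-0.39 to 0.12, adjusted p = 0.436). Max spans 76937269 to 76962201 of chromosome 12, minus strand (ENSMUSG00000059436.13).

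The E-box that Myc, Mxd and Mnt dimers with Max recognize was itself present near the starts of 4 members. In Max the match runs across the start. RefSeq promoters, 250 bases before to 50 after a start, were matched for 8 of the 9 members, in 10 promoters. CACGTG, the same on both strands, was in 4 of the 10, those of Max, Mlx, Mnt and Mxd4, where 7.15% of 32851 promoters held it. The 30 bases around each match are shown with the E-box in capitals (GRCm38.p6, written on the strand of the gene), since these are the letters that the dimers themselves read. They lie at chr12:76962234-76962263 (minus), chr11:101087238-101087267 (plus), chr11:74830789-74830818 (plus) and chr5:34187912-34187941 (minus), and begin 3, 40, 123 and 219 bases before the start:
Max: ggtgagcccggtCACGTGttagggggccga
Mlx: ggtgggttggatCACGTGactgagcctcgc
Mnt: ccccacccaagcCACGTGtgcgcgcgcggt
Mxd4: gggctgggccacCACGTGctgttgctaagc
Of these 4, Mxd4 was called higher in both Evi1 groups and Mlx in preleukemia against mock, while Max and Mnt were not called. A link between the E-box and these differences was not tested. Evi1 is known to bind GACAAGATA through its first and GAAGATGAG through its second set of zinc fingers. Neither string was in any of the 10 member promoters on either strand, where 0.119% and 0.399% of all promoters held them. With shares this low, absence from 10 promoters was likely in advance, and Evi1 binding was not tested.

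Mxi1, an antagonist that pairs with Max and binds Sin3, rose in both Evi1 groups. It had 15.3 and 15.1 RPKM in leukemia, 14.0 and 16.0 RPKM in preleukemia, and 6.62 and 6.75 RPKM in mock. All 4 Evi1 libraries lay above both mock libraries, and the mock pair was close for this gene. The mean was 15.2 ± 0.117 RPKM in leukemia and 15.0 ± 1.38 in preleukemia, against 6.68 ± 0.0893 in mock (SD, n = 2 each). The difference from mock was 1.08 in leukemia (SE 0.11, adjusted p = 0.00129) and 1.06 in preleukemia (SE 0.11, adjusted p = 0.00202), called in all 16 alternative settings in both. Leukemia against preleukemia gave 0.02 (95% interval -0.24 to 0.28, adjusted p = 0.919). Mxi1 spans 53310518 to 53375810 of chromosome 19, plus strand (ENSMUSG00000025025.14).

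Mxd4, another Sin3-binding antagonist, also rose in both. Its level was 31.6 and 34.3 RPKM in leukemia, 27.7 and 27.4 RPKM in preleukemia, and 18.9 and 16.6 RPKM in mock. The groups did not overlap in any pair, with leukemia highest and mock lowest. The difference from mock was 0.86 in leukemia (SE 0.10, adjusted p = 0.00255), called in all 16 settings, and 0.61 in preleukemia (SE 0.10, adjusted p = 0.0111). The preleukemia call was lost on leaving out preleukemia library 1 (adjusted p = 0.0805) or library 2 (0.0934). Leukemia against preleukemia gave 0.25 (SE 0.10, adjusted p = 0.149). Mxd4 spans 34173883 to 34187720 of chromosome 5, minus strand (ENSMUSG00000037235.13).

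Mnt, the antagonist found in dividing and resting cells alike, had 16.4 and 17.7 RPKM in leukemia, 11.6 and 14.1 RPKM in preleukemia, and 13.7 and 26.8 RPKM in mock. The mock libraries enclosed the leukemia libraries, and preleukemia lay at the low end. Mnt was not called in any comparison: the difference was -0.16 in leukemia (adjusted p = 0.698) and -0.55 in preleukemia (adjusted p = 0.205) against mock, and 0.39 in leukemia against preleukemia (adjusted p = 0.375, or 0.0467 in a fit of the 4 libraries compared). Without mock library 1, the lower of the pair, Mnt passed as lower in leukemia (-0.62, adjusted p = 0.020) and in preleukemia (-1.02, adjusted p = 0.00536). Without mock library 2 the leukemia difference turned to 0.30 (adjusted p = 0.151) and the preleukemia difference was -0.09 (0.673).

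Mxd1, the antagonist linked to myeloid maturation, had 8.08 and 9.44 RPKM in leukemia, 7.95 and 13.1 RPKM in preleukemia, and 7.26 and 16.99 RPKM in mock. All 3 groups overlapped. The differences were -0.32 in leukemia against mock (95% interval -1.21 to 0.56, adjusted p = 0.553), -0.12 in preleukemia against mock (-1.01 to 0.77, adjusted p = 0.851) and -0.21 in leukemia against preleukemia (-1.10 to 0.68, adjusted p = 0.747). Without mock library 1 the differences from mock were -0.89 in leukemia (adjusted p = 0.0521) and -0.68 in preleukemia (0.103). Without mock library 2 they turned to 0.24 in leukemia (0.535) and 0.44 in preleukemia (0.299).

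Mxd3, the antagonist known to be expressed in S phase, was low throughout, with 1.33 and 1.22 RPKM in leukemia, 1.65 and 2.44 RPKM in preleukemia, and 1.82 and 1.21 RPKM in mock. These levels stand for 57 to 125 implied reads. Preleukemia overlapped mock, and leukemia lay below preleukemia without overlap. No comparison was called: -0.14 in leukemia against mock (adjusted p = 0.638), 0.27 in preleukemia against mock (0.357) and -0.41 in leukemia against preleukemia (0.193).

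Mlx, which takes the place of Max beside Mlxip, was highest in preleukemia. It had 9.38 and 11.3 RPKM in leukemia, 19.3 and 22.3 RPKM in preleukemia, and 13.1 and 9.13 RPKM in mock. Both preleukemia libraries lay above the other 4, and leukemia and mock overlapped. Mlx rose by 0.86 in preleukemia against mock (SE 0.18, adjusted p = 0.0215) and fell by 0.95 in leukemia against preleukemia (SE 0.18, adjusted p = 0.0163). Leukemia against mock gave -0.08 (95% interval -0.52 to 0.35, adjusted p = 0.764). The rise was lost on leaving out preleukemia library 1 (adjusted p = 0.0776) or 2 (0.153) or with no filter on low genes (0.0677). The fall did not pass without preleukemia library 1 (0.0653) or 2 (0.127), without leukemia library 1 (0.116) or with no filter (0.0579). Mlx spans 101087277 to 101092207 of chromosome 11, plus strand (ENSMUSG00000017801.15). Up to 385 bases of an exon are shared with Psmc3ip on the other strand, and the library kit by its name does not mark strand. Psmc3ip had 5.50 and 4.09 RPKM in leukemia, 6.37 and 6.00 RPKM in preleukemia, and 7.28 and 4.85 RPKM in mock, and was not called in preleukemia against mock (0.05, adjusted p = 0.893).

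Some exon bases of 3 more members are shared with a gene on the other strand: up to 105 of Mxd3 with Prelid1, up to 353 of Mxd4 with Gm42846 and up to 194 of Mxi1 with Gm10197. Prelid1 had 69.5 and 66.4 RPKM in leukemia, 94.7 and 96.8 RPKM in preleukemia, and 88.0 and 77.8 RPKM in mock. That is far above Mxd3, so the level of Mxd3 may hold reads of Prelid1. In limma Prelid1 was called lower in leukemia against preleukemia (-0.49, adjusted p = 0.0186), where Mxd3 gave -0.41 and was not called. Gm10197 reached at most 1.18 RPKM. For Gm42846 no level is given here, so its part in the level of Mxd4 is not known.

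Set beside each other per library, the activators and antagonists showed how differently the mock pair was built. Myc and Mycn together came to 145.0 and 129 RPKM in leukemia, 94.8 and 104 RPKM in preleukemia, and 99.4 and 48.9 RPKM in mock. The 5 antagonists together came to 72.7 and 77.8 RPKM in leukemia, 62.8 and 73.0 RPKM in preleukemia, and 48.3 and 68.4 RPKM in mock. The ratio of the sums was 2.00 and 1.66 in leukemia, 1.51 and 1.42 in preleukemia, and 2.06 and 0.715 in mock. All 4 Evi1 libraries thus fell between the 2 mock libraries, where Myc was lower and Mnt and Mxd1 higher in library 2 than in library 1. Within the mock pair the higher library held 2.03 times the RPKM of the lower for Myc, 1.96 times for Mnt and 2.34 times for Mxd1, but 1.02 times for Mxi1 and 1.04 times for Max. Mycn made up 0% and 0.0239% of the Myc and Mycn sum in leukemia and 6.63% and 4.50% in preleukemia, against 1.75% and 1.78% in mock. Mxi1 made up 21.03% and 19.4% of the antagonist sum in leukemia and 22.3% and 21.9% in preleukemia, against 13.7% and 9.87% in mock.

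**Figure D3:**
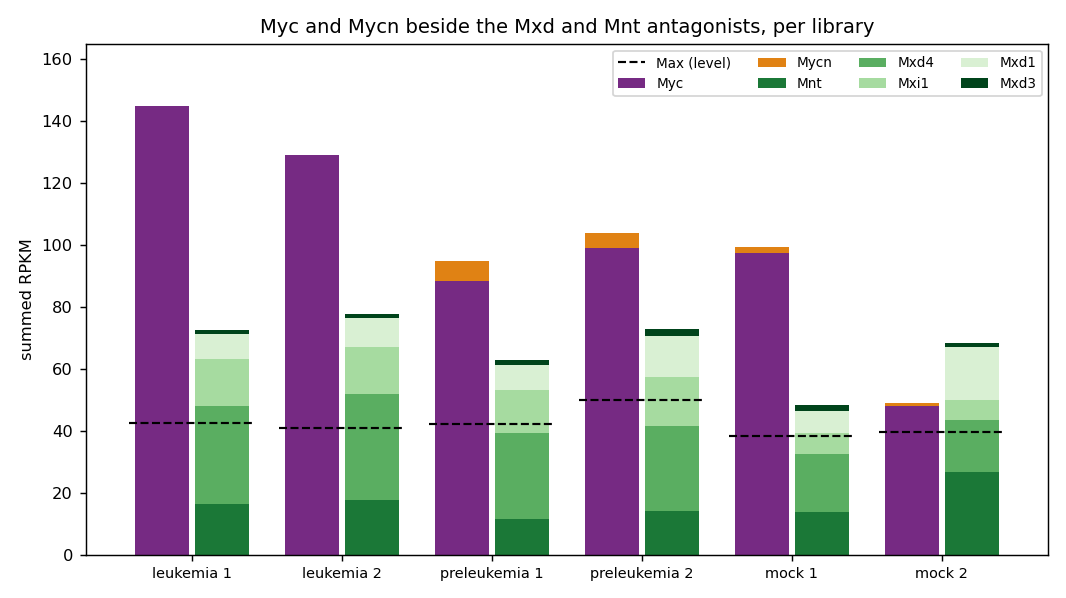
Summed RPKM (vertical axis, from 0) per library: left bars are Myc with Mycn, right bars the 5 antagonists, and the dashed line is the level of Max. The ratio of the left to the right bar is 0.715 in mock library 2 and 2.06 in mock library 1, and the 4 Evi1 libraries lie between.

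Other genes of the network were read from a list of 6 names, of which 5 were in the table (Mycl1 was listed as Mycl) and 2 were tested. Mga, a very large Max partner, had 15.0 and 15.6 RPKM in leukemia, 12.2 and 12.04 RPKM in preleukemia, and 12.3 and 10.6 RPKM in mock. It rose by 0.39 in leukemia against mock (SE 0.11, adjusted p = 0.0418), a call lost in 8 of the 16 settings, among them those without mock library 2 and without each single Evi1 library (adjusted p up to 0.218). Mlxip, the main partner of Mlx, had 25.0 and 30.02 RPKM in leukemia, 17.1 and 19.2 RPKM in preleukemia, and 21.4 and 22.3 RPKM in mock. Mlxip rose by 0.57 in leukemia against preleukemia (SE 0.12, adjusted p = 0.0230), where Mlx fell, but it did not pass without any single Evi1 library or with no filter (adjusted p up to 0.147). Mlxipl, the carbohydrate-response partner of Mlx, was low, with 0.151 and 0.123 RPKM in leukemia, 0.584 and 0.585 RPKM in preleukemia, and 0.0172 and 0.0277 RPKM in mock. Mycl had 0.0472 and 0.0504 RPKM in leukemia, 0 and 0.0572 RPKM in preleukemia, and 0.332 and 0.907 RPKM in mock, or 8, 5 and 103 reads per group. Mycl in leukemia held 0.0799 of the mock reads per total (95% interval 0.0336 to 0.163) and in preleukemia 0.0526 (0.0167 to 0.127), for counting error only. Mlxipl and Mycl did not reach the filter of 1 RPKM. A filter of 0.5 RPKM let Mlxipl in only through its preleukemia libraries, the group where it is high. There it differed by 0.63 in preleukemia against mock, -0.48 in leukemia against preleukemia and 0.15 in leukemia against mock. No call is drawn from that test, since the filter used the same levels. Mycl was not tested at that filter either, and Mycs was at 0 in every library.

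Txnip and Arrdc4, the arrestin-like genes that Mlx with Mlxip is best known to drive, stood out among 5 measured targets of that pair. In leukemia against mock 2 rose and 1 fell, where 12.1% of all genes tested rose and 13.5% fell. In preleukemia against mock 2 rose and 1 fell, beside 13.5% and 6.02% of all genes. In leukemia against preleukemia none was called, beside 18.3% of all genes. Medians in these comparisons were 0.30, 0.10 and 0.20, where all genes had -0.04, 0.05 and -0.09. Txnip had 94.2 and 125 RPKM in leukemia, 91.7 and 91.7 RPKM in preleukemia, and 52.9 and 29.2 RPKM in mock. It rose by 1.44 in leukemia (adjusted p = 0.0109) and 1.201 in preleukemia (adjusted p = 0.0250). Arrdc4 had 3.93 and 4.61 RPKM in leukemia, 6.65 and 7.92 RPKM in preleukemia, and 2.40 and 1.402 RPKM in mock. It rose by 0.88 in leukemia (adjusted p = 0.0202) and 1.53 in preleukemia (adjusted p = 0.00417); the preleukemia call stood in all 16 settings and the leukemia call did not pass without either leukemia library or with no filter (adjusted p up to 0.124). Hk2, a hexokinase on the same list, fell by 0.47 in leukemia (adjusted p = 0.0247) and fell by 0.79 in preleukemia (adjusted p = 0.00608). Txnip was thus high in both Evi1 groups, while Mlx itself was high in preleukemia and overlapped mock in leukemia. The leukemia call of Txnip did not pass without leukemia library 2 (adjusted p = 0.0693), and its preleukemia call did not pass without either preleukemia library or with no filter (adjusted p up to 0.137).

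Genes known to be activated by Myc, mostly of ribosome building, chaperones and nucleotide supply, were lower in the Evi1 groups for a part of the list. Like the other lists, it was written with earlier results of these data known. Of 39 tested, 14 fell, 1 rose and 24 were not called in leukemia against mock, which is 35.9% lower beside 13.5% of all genes. In preleukemia against mock 9 fell, 1 rose and 29 were not called, which is 23.1% lower beside 6.02% of all genes. Medians were -0.36 in both, beside -0.04 and 0.05 for all genes, and 37 of the 39 lay below 0 in each. Without mock library 1 the medians were -0.26 in leukemia and -0.16 in preleukemia. Nop58, a core protein of small nucleolar particles, had 71.5 and 67.6 RPKM in leukemia, 71.6 and 65.1 RPKM in preleukemia, and 99.0 and 101 RPKM in mock. It fell by 0.52 in leukemia (adjusted p = 0.0103) and by 0.54 in preleukemia (adjusted p = 0.0112). Gnl3 (nucleostemin) fell by 0.55 and Wdr43 by 0.54 in preleukemia (adjusted p = 0.0116 and 0.0121).

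Ccnd2, a D cyclin, had the largest difference among the list genes that fell, with 14.6 and 15.5 RPKM in leukemia, 28.3 and 23.8 RPKM in preleukemia, and 40.7 and 36.9 RPKM in mock. It fell by 1.31 in leukemia against mock (adjusted p = 0.000961), called in all 16 settings. Tfrc, the transferrin receptor and also an erythroid marker, fell by 0.65 in leukemia (adjusted p = 0.0139), beside the erythroid sums above. Tert, the telomerase subunit, was the exception that rose: 3.93 and 3.59 RPKM in leukemia, 2.09 and 2.45 RPKM in preleukemia, and 0.797 and 0.404 RPKM in mock. Its difference was 1.58 in leukemia (adjusted p = 0.00162) and 1.04 in preleukemia (adjusted p = 0.00922). In leukemia against preleukemia 2 of 39 fell (Ccnd2 and Nme2), or 5.13% beside 13% of all genes, and none rose. The median was 0.03. That balance turned with the processing: 2 rose and 1 fell after trimmed mean scaling, after quantile normalization and in voom (medians 0.13, 0.16 and 0.13). In these settings the share of higher calls over all genes also moved, to 44.2%, 50.8% and 44.7%, against 28.8%. In the 4-library fit 2 of the list rose and 7 fell, where 3428 genes were called in all, against 2006. Against mock, the number lower turned on single libraries, in leukemia 3 without leukemia library 1, 1 without leukemia library 2, 7 without either preleukemia library, 10 without mock library 1 and 21 without mock library 2, and in preleukemia 1 without preleukemia library 1, 0 without preleukemia library 2, 8 without mock library 1 and 17 without mock library 2. Counts over all genes also moved with single libraries, with ranges given at the end. The list median was below the median of all genes in both comparisons with mock under every setting tried.

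**Figure D4:**
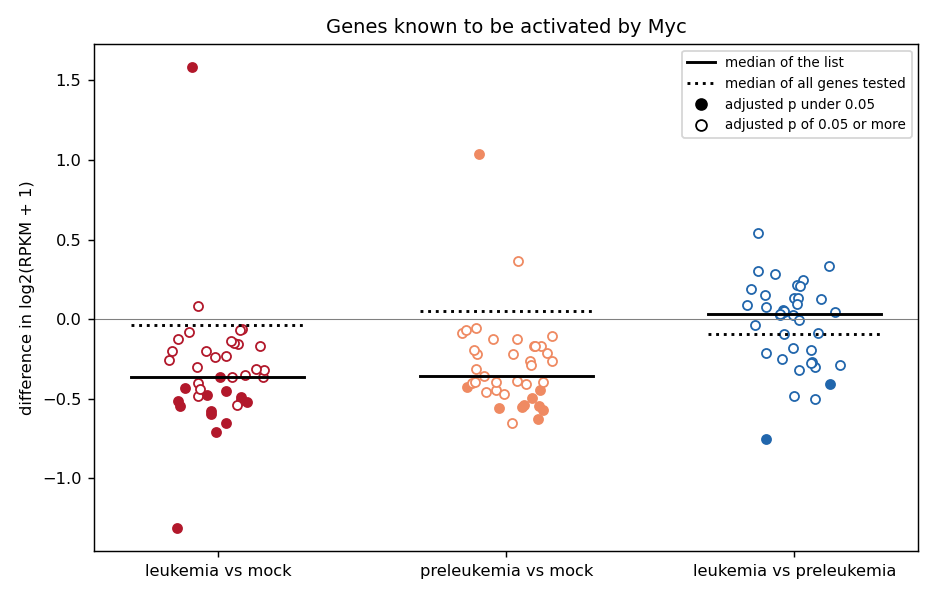
Difference in log2(RPKM + 1) (vertical axis) of the 39 tested genes known to be activated by Myc, in each comparison; filled points have an adjusted p under 0.05, solid lines are the list median and dotted lines the median of all genes tested. In both comparisons with mock the list median is -0.36, and Tert lies alone at 1.58 and 1.04.

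Among 13 genes known to be repressed by Myc, 9 were tested. In leukemia against mock 1 fell (Gadd45b, a stress gene, by 1.72, adjusted p = 0.0178) and 8 were not called, which is 11.1% lower beside 13.5% of all genes, with a median of -0.22. In leukemia against preleukemia the median was -0.19. In preleukemia against mock 2 rose, 2 fell and 5 were not called, which is 22.2% each way beside 13.5% higher and 6.02% lower of all genes, with a median of -0.01. Without either preleukemia library, 1 rose and none fell there; without mock library 1, 3 rose and 3 fell there, and 2 rose and 3 fell in leukemia against mock. Ndrg2, a differentiation-linked gene, had 0.971 and 1.42 RPKM in leukemia, 12.3 and 11.0 RPKM in preleukemia, and 1.65 and 2.20 RPKM in mock. It rose by 2.12 in preleukemia against mock (adjusted p = 0.000922) and fell by 2.53 in leukemia against preleukemia (adjusted p = 0.000835, the 1 gene of the list called there), both called in all 16 settings. Cdkn1a, the cell cycle inhibitor p21, fell by 1.82 in preleukemia (adjusted p = 0.0322), with mock libraries at 20.7 and 57.4 RPKM. Cdkn2c, the inhibitor p18, rose by 1.10 (adjusted p = 0.0406).

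Cofactors, corepressors and turnover factors were counted next, beside 25.6%, 19.5% and 18.3% of all genes called in leukemia against mock, preleukemia against mock and leukemia against preleukemia. Of 12 Myc cofactors 1 fell in leukemia against mock (Hcfc1, by 0.37, adjusted p = 0.0256) and none was called in the other comparisons, with medians of -0.13, -0.08 and -0.04. Without mock library 1, 4 of the 12 were lower in each comparison with mock. Of 12 genes of the Sin3 corepressor none was called in leukemia against mock (median -0.07), and 2 rose (Hdac1 among them) and 1 fell (Sap30) in preleukemia against mock, none of them without either preleukemia library (median 0.03; -0.10 in leukemia against preleukemia). Hdac1, its deacetylase, had 32.6 and 30.7 RPKM in leukemia, 46.7 and 46.8 RPKM in preleukemia, and 36.8 and 31.2 RPKM in mock. It rose by 0.45 in preleukemia against mock (adjusted p = 0.0311) and fell by 0.55 in leukemia against preleukemia (adjusted p = 0.0176), the 1 gene of the list called there. Of 14 tested genes for kinases and turnover of Myc protein, Pim2, a kinase, rose by 0.77 in leukemia (adjusted p = 0.0177) and by 1.06 in preleukemia (adjusted p = 0.00765) against mock. Ppp2r5a, a phosphatase subunit that acts on Myc, fell by 0.88 in leukemia against mock (adjusted p = 0.00393, called in all 16 settings) and by 0.92 against preleukemia (adjusted p = 0.00514). It had 23.0 and 25.1 RPKM in leukemia, 44.5 and 48.0 RPKM in preleukemia, and 40.7 and 49.6 RPKM in mock. The medians of that list were -0.08, -0.02 and -0.16 in leukemia against mock, preleukemia against mock and leukemia against preleukemia.

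Of 20 cell cycle genes, read beside Mxd3 and the E2F letters of Mycn, 6 fell and 14 were not called in leukemia against mock, which is 30% lower beside 13.5% of all genes (median -0.37). That count was 2 without leukemia library 1, 0 without leukemia library 2, 2 without either preleukemia library, 3 without mock library 1 and 13 without mock library 2. In preleukemia against mock 2 fell (Mcm4 and Mcm3) and 18 were not called, which is 10% lower beside 6.02% of all genes, with a median of 0.09 that became -0.01 after quantile normalization. Without mock library 1 the list median in preleukemia against mock was 0.29, beside 0.10 for all genes. Without mock library 2 it was -0.13, beside 0.03. Rrm2, a ribonucleotide reductase subunit of S phase, had 25.1 and 23.4 RPKM in leukemia, 44.0 and 54.4 RPKM in preleukemia, and 53.4 and 39.9 RPKM in mock. It fell by 0.91 in leukemia against mock (adjusted p = 0.0103) and by 0.99 against preleukemia (adjusted p = 0.0105), the 1 gene of the list called there, or 5% lower beside 13% of all genes. In the 4-library fit 10 of the 20 were lower in leukemia against preleukemia. Over all genes that fit called 3428, of which 30.3% were higher, against 2006 in the main fit, of which 28.8% were higher.

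The genes most like Myc and Mycn in pattern were taken as those with the smallest root mean square difference between mean-centred log2(RPKM + 1) profiles over the 6 libraries. For Myc these were Zfp266 (0.135), Zfp825 (0.140), Zfp958 (0.148) and Trim65 (0.165). Zfp266 had 8.16 and 7.67 RPKM in leukemia, 5.38 and 5.41 RPKM in preleukemia, and 5.08 and 2.97 RPKM in mock, and so shares the low mock library 2. For Mycn they were Dio2 (0.201), Tie1 (0.280), Fgf3 (0.295) and Xrcc5 (0.321). Dio2, a deiodinase, had 1.73 and 2.32 RPKM in leukemia, 16.96 and 18.2 RPKM in preleukemia, and 6.11 and 3.30 RPKM in mock. Tie1, an endothelial and stem cell receptor, had 0.136 and 0.745 RPKM in leukemia, 7.595 and 8.79 RPKM in preleukemia, and 3.95 and 2.27 RPKM in mock. As for Mycn, preleukemia was highest and leukemia lowest in both, without overlap between groups. These genes, and Zfp266 for Myc, were picked for likeness over these same 6 libraries, so the shared patterns follow from the choice.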

How the data were processed

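Per the labels' protocols, total RNA of sorted cells was extracted with Nucleospin RNA and made into libraries with an NEBNext Ultra RNA kit; CASAVA 1.8.2 and GRCm38 appear in the submitters' processing notes. For the aligner, counter and annotation: not given in the sources used here. The deposited table holds 1 RPKM value per gene and library for 38924 rows; its unit comes from the values alone: after multiplication by exon length in GENCODE M21 (35433 rows, 91.0%, matched), 64.1% to 66.0% of values under 20 reads lay within 0.02 of a whole number. The fitted step gave the library totals and implied reads.

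limma 3.58.1 in R 4.3.3 compared groups on log2(RPKM + 1), with 3 group means fitted to all 6 libraries, no covariate and a prior following the mean level (3 residual and 3.70 prior degrees of freedom), two-sided, after a filter of 1 RPKM in 2 libraries. The test was tested on simulated data. The members and lists were chosen with earlier results of these data known. Genes named are all members, up to 4 genes of smallest p per list and comparison, and the 4 genes nearest in pattern to Myc and to Mycn, besides markers and overlapping neighbours. Alternatives were other pseudocounts, filters and scalings, another prior, fits of 4 libraries, a replicate block and leaving out each library; voom on implied reads was added after seeing the data. Promoter sequences are RefSeq's (GRCm38.p6).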

Additional observations from a re-analysis of the deposited data

Results flagged for a closer look

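Mycn moved in opposite directions in the 2 Evi1 groups: both leukemia libraries (0 and 0.0309 RPKM) lay below both mock libraries (1.74 and 0.872 RPKM), and both preleukemia libraries (6.28 and 4.67 RPKM) lay above them. Leukemia against preleukemia gave -2.66 on the log2(RPKM + 1) scale (SE 0.22, limma adjusted p = 0.00164). That test uses the values that set the flag, so it is no separate support. Mycn also passed the filter on low genes only because both preleukemia libraries reached it. Time after transplantation and leukemia cannot be told apart in this difference.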

How the results depend on the processing

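Leaving out each library gave 430 to 3449 genes changed in leukemia against preleukemia (2006 with all), 1046 to 3848 in leukemia against mock (2809) and 520 to 3873 in preleukemia against mock (2140). Members changed ranged from 1 to 4, 2 to 5 and 1 to 6, and genes activated by Myc that were lower from 1 to 21 in leukemia and 0 to 17 in preleukemia against mock. With no filter on low genes, 1302 genes and 1 member changed in leukemia against preleukemia, and 8 activated genes were lower in leukemia against mock. In fits of the 4 libraries compared, 3428 genes and 4 members changed in leukemia against preleukemia, 1374 genes in preleukemia against mock, and 7 activated genes were lower in leukemia against mock. Activated genes lower in preleukemia against mock numbered 16 after trimmed mean scaling, 15 after quantile normalization and 14 with the replicate block. The cause was not tested.

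Scaling moved the share of higher calls in leukemia against preleukemia to 44.2% (trimmed mean) and 50.8% (quantile), against 28.8%, and in preleukemia against mock to 57.8% and 52.9%, against 69.2%; the median of all genes in leukemia against preleukemia moved from -0.09 to 0.00 and 0.03. The direction of Max in leukemia against preleukemia turned to 0.0067 after quantile normalization. Leaving out each library in turn turned 10 member values. In leukemia against mock the values ran from -0.886 to 0.236 for Mxd1, -0.312 to 0.0395 for Mxd3, -0.624 to 0.298 for Mnt and -0.323 to 0.156 for Mlx. In preleukemia against mock they ran from -0.0588 to 0.949 for Myc and -0.679 to 0.443 for Mxd1, and in leukemia against preleukemia from -0.536 to 0.122 for Mxd1 and -0.0684 to 0.108 for Mxi1. None of these was called with all libraries. Of the member results under alternatives chosen at the outset, 368 kept direction and call, 14 passed newly, 12 no longer passed and 11 turned.

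Same-numbered libraries deviated together with correlations of 0.0125 (leukemia and mock), 0.179 (leukemia and preleukemia) and 0.116 (preleukemia and mock), so the numbers were not taken as pairs; with the replicate block 2060, 2932 and 2118 genes changed in leukemia against preleukemia, leukemia against mock and preleukemia against mock. Where 1 library was left out of a pair, the lone library was assumed to vary like the other groups. Depth limits Mycn in leukemia and Mycl, which rest on a few reads.

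Of 68 calls of members and list genes, 10 stood in all 16 alternative settings; the other 58 were lost on leaving out at least 1 library.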
